A study of Mus musculus with 8 samples.

Results

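The 3 Gadd45 genes, the Cip/Kip and 2 INK4 inhibitors of cyclin-dependent kinases, Trp53 and Mdm2 were followed in fibroadipogenic progenitors. These are the mesenchymal cells of skeletal muscle that can become fibroblasts or adipocytes. The 10 genes were taken by symbol from the deposited table of 24419 genes; all 10 had a row, and 9 passed the filter on low counts and were tested. Progenitors were sorted as live SCA-1-positive cells lacking CD31, CD45 and α7-integrin from the hindlimbs of male C57BL/6J mice, and sequenced as 8 stranded mRNA libraries. Sham mice (n = 2 libraries) had surgery without tumour cells. Scrambled mice (n = 3) received 2000000 KPCY cells, a mouse pancreatic tumour line, stably transduced with a lentivirus for a scrambled sequence, and knockdown mice (n = 3) received KPCY cells stably transduced with a lentivirus that inhibits miR-27a-3p. The cells went into the pancreas in 50 µL, and each construct was 1 stable line, selected with puromycin at 2 µg/mL for 7 days. The knockdown was therefore in the implanted cells, and the genes below were measured in the host's progenitors. The labels give neither the age of the mice nor the time after implantation. The series is titled for pancreatic cancer cachexia.

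Gadd45a, Gadd45b and Gadd45g encode small stress-induced proteins that bind PCNA, CDK1 with cyclin B, and the kinase MEKK4, which acts upstream of p38 and JNK. Cip/Kip proteins (p21, p27 and p57, from Cdkn1a, Cdkn1b and Cdkn1c) bind cyclin-CDK complexes and slow the cell cycle. INK4 proteins bind CDK4 and CDK6, and those among the members come from Cdkn2a and Cdkn2b. The transcription factor p53, from Trp53, is held low by the ubiquitin ligase from Mdm2 and is regulated mostly at the level of the protein; Cdkn1a, Gadd45a and Mdm2 are among its classical targets. Many resident muscle progenitors are quiescent, a state in which such inhibitors are commonly expressed.

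The 250 bases before the start site are shown for the 3 Gadd45 genes and Cdkn1a, the members with the largest differences between scrambled and sham libraries, because a reader may want to see what their promoters share. They were taken from RefSeq (GRCm38.p6), read 5′ to 3′ on the strand of the gene. Capitals mark motif matches. These are the E-box and TATA motifs in Gadd45b and Gadd45g and the decamer of the p53 response element in Gadd45a. In Cdkn1a they are a match to the full p53 response element, a pair of decamers with the bases between them. The decamer was RRRCWWGYYY, where R is A or G, W is A or T and Y is C or T. The bases that follow in Cdkn1a, tgacatgttc, depart from it in the first base only and were not marked. The windows lie at chr6:67037408-67037657 (- strand), chr10:80929841-80930090 (+), chr13:51846425-51846674 (+) and chr17:29090729-29090978 (+).
Gadd45a: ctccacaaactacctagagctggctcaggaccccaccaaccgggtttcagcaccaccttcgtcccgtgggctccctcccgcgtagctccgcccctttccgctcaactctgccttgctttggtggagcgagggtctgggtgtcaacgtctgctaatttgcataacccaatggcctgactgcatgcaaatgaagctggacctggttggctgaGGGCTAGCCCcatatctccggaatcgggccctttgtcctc
Gadd45b: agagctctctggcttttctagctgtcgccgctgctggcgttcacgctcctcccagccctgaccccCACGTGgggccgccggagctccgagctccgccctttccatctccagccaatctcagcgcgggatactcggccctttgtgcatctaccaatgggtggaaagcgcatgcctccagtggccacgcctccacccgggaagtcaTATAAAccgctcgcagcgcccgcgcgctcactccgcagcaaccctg
Gadd45g: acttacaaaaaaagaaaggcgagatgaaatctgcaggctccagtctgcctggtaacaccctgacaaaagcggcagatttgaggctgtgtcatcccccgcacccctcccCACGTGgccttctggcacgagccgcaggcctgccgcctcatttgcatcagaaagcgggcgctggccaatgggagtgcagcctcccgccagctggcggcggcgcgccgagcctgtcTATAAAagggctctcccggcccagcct
Cdkn1a: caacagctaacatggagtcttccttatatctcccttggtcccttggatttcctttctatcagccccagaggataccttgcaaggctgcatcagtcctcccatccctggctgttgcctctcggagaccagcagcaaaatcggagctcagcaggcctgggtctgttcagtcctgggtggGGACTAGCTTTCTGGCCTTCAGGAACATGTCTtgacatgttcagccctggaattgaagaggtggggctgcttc

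RefSeq held 11 promoter windows for 9 of the 10 genes, Cdkn1c being the exception. Each window was searched from 250 bases before to 50 after the start, on both strands, for TTCNNNGAA (STAT), TGANTCA (AP-1), TGACGTCA (the cAMP response element), TTGCGCAA (C/EBP), CACGTG (the E-box), GTAAACA (FOXO), TATAAA (the box near the start of some genes), the glucocorticoid receptor element, paired core half-sites of p53, the p53 decamer and the full p53 response element, whose matches contain 2 decamers. The full p53 response element was found in 1 of the 11 windows, that of Cdkn1a from -73 to -42, and in 0.0731% of the 32851 windows of the same length in the table. A single p53 decamer was found in 4 of the members' windows, those of Gadd45a (-40 to -31), Cdkn1a, Trp53 and Mdm2, and in 8.36% of all windows. Gadd45b and Gadd45g each held an E-box, from -185 to -180 and from -142 to -137, and TATAAA, from -46 to -41 and from -27 to -22. The E-box was in 3 member windows and 7.15% of all, and TATAAA in 3 and 13.6%. The cAMP response element was found in Cdkn2b (1.79% of all windows) and the FOXO motif in Mdm2 (3.65%). No member window held the STAT, AP-1, C/EBP or glucocorticoid receptor motifs. Paired core half-sites of p53 were searched only with 10 bases between the cores, and no member window held a pair at that spacing. The cores of adjoining decamers lie closer together and were outside this search. In Cdkn1a such a closer pair spans the end of the marked match and the unmarked bases that follow it. These matches describe the letters only. Cdkn1a has a second RefSeq window, in which none of the motifs was found, and gene counts do not show which start was used.

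Total counts ran from 15647436 to 28340450 per library, so that 3 reads, the most that a count of 0 allows by counting error, were at most 0.190 CPM. Scrambled library 2 stood apart from the other scrambled libraries: on the first principal component of log2 CPM (61.1% of the variance) it lay at -12.3, scrambled libraries 1 and 3 at 115 and 92.0, and the sham and knockdown libraries between -47.7 and -32.3. Pdgfra, the receptor that marks these progenitors, was at 1256 to 1588 CPM in all 8 libraries, but most other markers of the cell type were lower in scrambled libraries 1 and 3. Of the 14 progenitor markers, none called by edgeR from sham to scrambled libraries (5 at an unadjusted p under 0.05, and 1 higher and 3 lower by DESeq2), 10 differed downwards, with a median log2 difference of -0.71. Cd34, a surface marker of these cells, was at 2250 and 2156 CPM in sham, 213, 1179 and 241 in scrambled and 1805 to 1925 in knockdown libraries. Ly6a, a gene of the sorted SCA-1 antigen, was at 951 and 933, at 451, 1136 and 436, and at 1033 to 1175 CPM. Pi16 (295, 2305 and 189 CPM in scrambled libraries) and the collagen gene Col3a1 (990, 10123 and 974) were likewise lowest in scrambled libraries 1 and 3. By sign, 4 of the 14 went the other way. Among these was Dcn, at 11101 and 14630 CPM in sham and 24984, 19625 and 21059 in scrambled libraries. The part of this in the differences of the Gadd45 genes and Cdkn1a was not tested. Ptprc (CD45) was at no more than 2.51 CPM, Itga7 (α7-integrin) at 11.5 and Pecam1 (CD31) at 73.0, with the highest Pecam1 and Itga7 in scrambled libraries. In these bulk samples, fewer cells of a type and less RNA per cell cannot be told apart. CPM below are counts divided by library size and TMM factor, on the usual CPM scale; a gene was called when its adjusted p in edgeR's quasi-likelihood test, over all 13646 genes tested, was under 0.05.

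**Figure D1:**
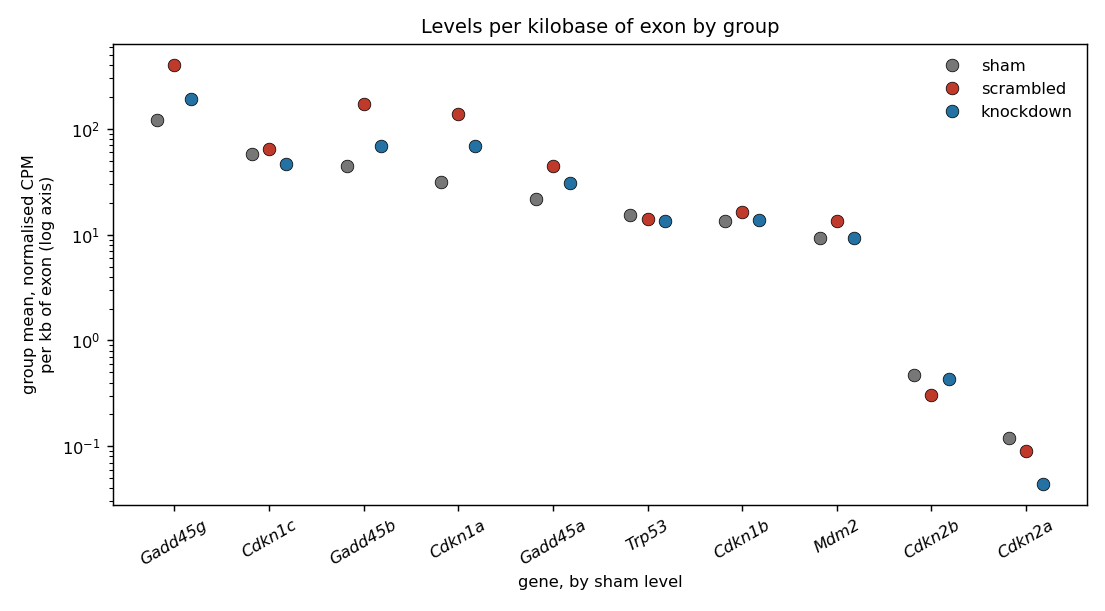
Group means of normalised CPM per kilobase of exon on a log axis for the 10 genes, ordered by their sham level. Gadd45g was highest in every group, and Cdkn2b and Cdkn2a lay below 0.5 CPM per kilobase in every group.

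Levels per length separated the genes into classes. Per kilobase of exon, Gadd45g was the most abundant, at 121 ± 6.51 CPM per kilobase (SD, n = 2) in sham libraries. It was at 403 ± 95.9 (SD, n = 3) in the scrambled group and at 193 ± 19.4 (SD, n = 3) in the knockdown group. Cdkn1c followed in sham libraries (57.7 ± 8.25), then Gadd45b (44.8 ± 7.24), Cdkn1a (31.3 ± 3.35) and Gadd45a (21.6 ± 5.50), and the libraries of each pair of neighbours in that order did not overlap. This held for the length of all exons only. The longest transcript of Cdkn1a has 2.08 kb, against 3.55 kb for all its exons. With the longest transcripts the sham libraries of Cdkn1c, Gadd45b and Cdkn1a overlapped. In scrambled libraries the order changed to Gadd45g, Gadd45b (171 ± 65.1), Cdkn1a (139 ± 80.8), Cdkn1c (64.9 ± 16.9) and Gadd45a (44.6 ± 4.91). There, Gadd45b and Cdkn1a overlapped, as did Cdkn1a and Cdkn1c. In knockdown libraries Cdkn1a (69.0 ± 7.08) and Gadd45b (68.5 ± 8.69) overlapped. Cdkn1b, Trp53 and Mdm2 formed a lower group, between 9.24 and 16.5 CPM per kilobase in group means. Their order is uncertain, since with the longest transcript in place of all exons Mdm2 and Trp53 averaged 17.5 each over the 8 libraries, against 10.9 and 14.1.

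**Figure D2:**
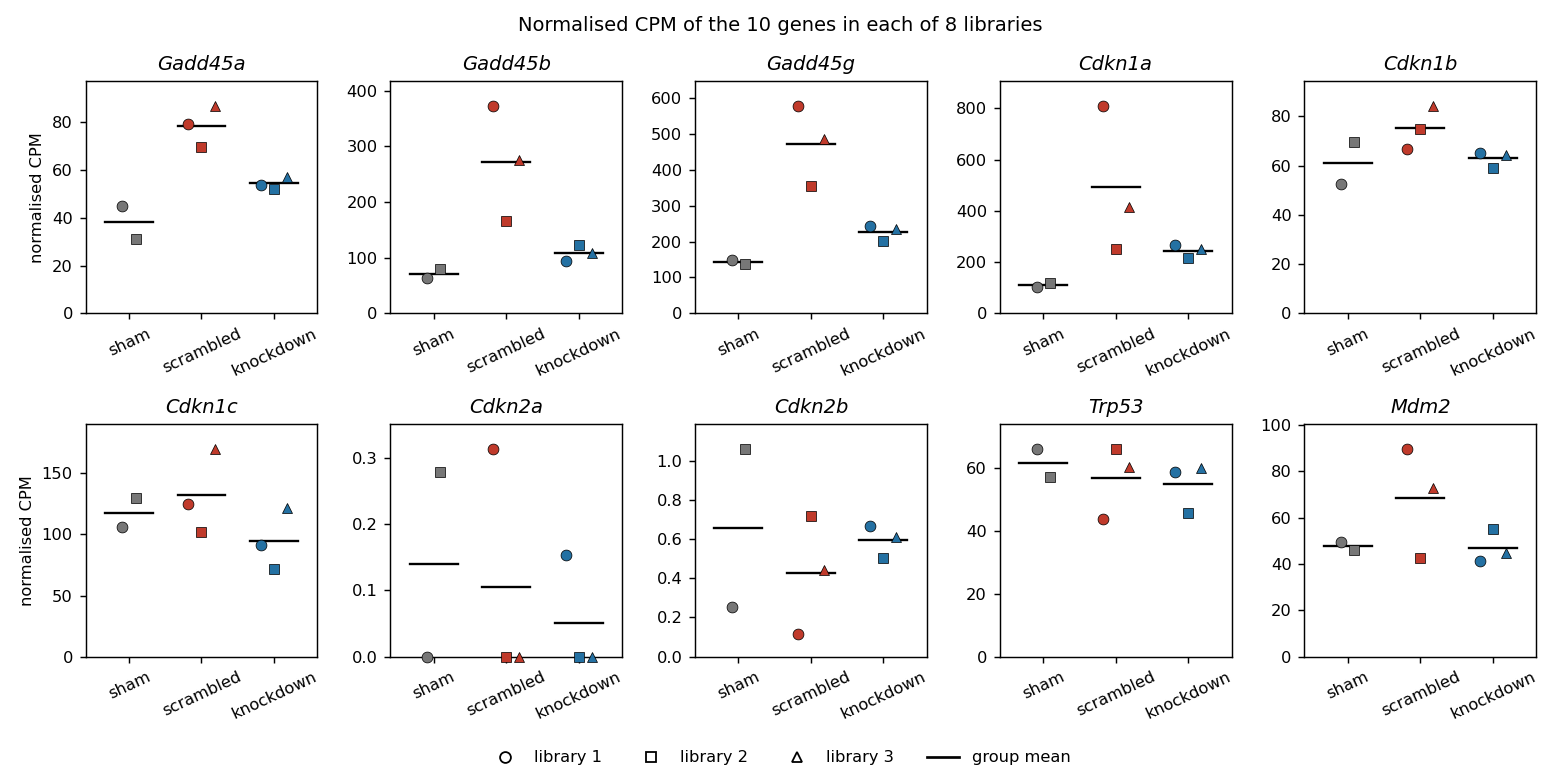
Normalised CPM of each gene (y axis, from 0) in the 2 sham, 3 scrambled and 3 knockdown libraries, with a bar at the group mean. For Gadd45a, Gadd45b and Gadd45g the 3 scrambled libraries lie above all others, whereas Cdkn1a of scrambled library 2, at 251 CPM, lies among the knockdown libraries.

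Scrambled libraries were set against sham libraries to see what a tumour in the pancreas goes with in muscle progenitors. The whole Gadd45 family rose, by 2.06-fold for Gadd45a, 3.81-fold for Gadd45b and 3.32-fold for Gadd45g. These were the members called, 3 of 9 tested, and none was called lower, beside 1.1% of all tested genes called higher and 0.476% lower. The groups did not overlap for 4 of the 9, all higher, namely the Gadd45 genes and Cdkn1a, beside 20.2% of all genes that were higher without overlap and 20.8% that were lower. The median log2 change was 0.52 over the 9 and 0.00 over all genes.

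Gadd45g (ENSMUSG00000021453.2, chromosome 13 from 51846678 to 51848468, + strand, GRCm38) stood at 148 and 137 CPM in sham libraries 1 and 2, at 577, 354 and 486 in scrambled libraries 1, 2 and 3, and at 243, 200 and 235 in knockdown libraries 1, 2 and 3. Every scrambled library was above every knockdown library, and every knockdown library above both sham libraries. Its log2 change from sham to scrambled was 1.73 ± 0.24 (SE; edgeR, adjusted p = 0.0194), rank 31 of all genes by p. Gadd45b, which is known as an early response gene of NF-kappa-B and TGF-beta, stood at 63.1 and 79.4 CPM in sham, 372, 166 and 276 in scrambled and 95.0, 123 and 109 in knockdown libraries. The 3 groups again did not overlap, and scrambled library 1 was more than 2-fold above scrambled library 2. The change was 1.93 ± 0.33 (adjusted p = 0.0344). Gadd45a, the family member most closely tied to p53, was the least abundant and the least changed, at 45.0 and 31.2 CPM in sham, 79.5, 69.6 and 86.9 in scrambled and 54.0, 52.3 and 57.2 in knockdown libraries. Its scrambled libraries lay close together and its sham libraries were the more uneven pair (log2 1.05 ± 0.20, adjusted p = 0.0444). E230016M11Rik, which overlaps Gadd45a on the other strand, was at 1.17 to 3.12 CPM. No source used here states the strand setting of the counts, so that reads of the pair cannot be told apart.

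Summed over the family, Gadd45 reads were at 256 and 248 CPM in sham, 1029, 589 and 849 in scrambled and 375 to 401 in knockdown libraries. Gadd45b is also induced when tissue is dissociated. The list of 25 immediate early and dissociation stress genes, among them Fos, Jun and Egr1, summed to 17218 and 21933 CPM in sham, 29032 to 40777 in scrambled and 22673 to 23702 in knockdown libraries. Of its 25 tested members 3 were called higher, Ier3 (log2 1.64 ± 0.24), Btg1 (1.75 ± 0.31) and Socs3 (1.84 ± 0.34), and none lower, with a list median of 0.75. DESeq2 called 15 higher, beside 5.1% of all 24419 genes in the table, 6786 of which had no reads in any library. By sign 19 members were higher and 6 lower. Hspa1b averaged 1441 CPM in sham, 960 in scrambled and 775 in knockdown libraries, and Hspa1a and Dnajb1 were likewise highest in sham libraries on average. The part of this list in the rise of the Gadd45 genes was not tested.

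**Figure D3:**
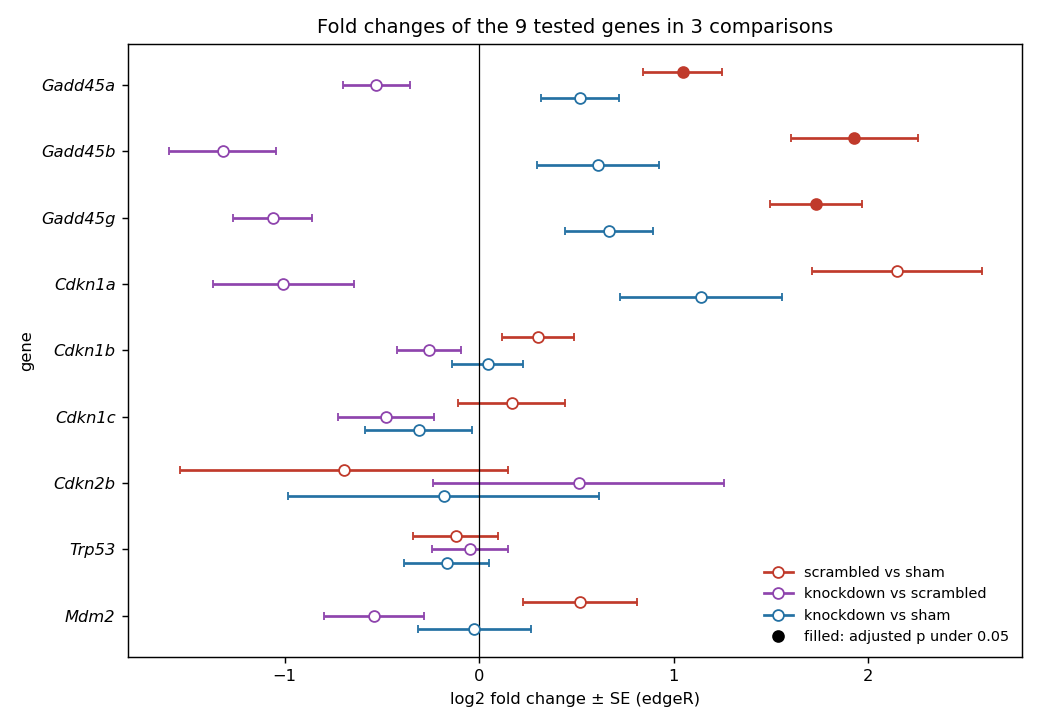
Log2 fold changes with standard errors (edgeR) of the 9 tested genes in the 3 comparisons; filled points had an adjusted p under 0.05. The filled points are Gadd45a, Gadd45b and Gadd45g in scrambled against sham libraries.

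Cdkn1a (ENSMUSG00000023067.14, chromosome 17 from 29090976 to 29100727, + strand), the gene of p21, had the largest difference and the widest spread. It stood at 103 and 120 CPM in sham, 810, 251 and 417 in scrambled and 268, 218 and 250 in knockdown libraries. Scrambled libraries 1 and 3 were above all others, and scrambled library 2 lay within the range of the knockdown libraries. The fitted difference was 4.43-fold (log2 2.15 ± 0.44), with an adjusted p of 0.0502, just past the threshold (0.0396 with no filter on counts, 0.0490 by limma-voom, 1.58e-05 by DESeq2). It was 0.0588 by the legacy method, 0.226 in a fit of these 2 groups alone, 0.272 without sham library 2, and above that without sham library 1. Its relatives differed little. Cdkn1b, the gene of p27, was at 52.6 and 69.5 CPM in sham, 66.8, 74.9 and 84.3 in scrambled and 65.1, 59.2 and 64.5 in knockdown libraries, with a log2 difference of 0.30 ± 0.18 (adjusted p = 0.283). Cdkn1c, the imprinted gene of p57, was at 106 and 130 CPM in sham, 125, 102 and 170 in scrambled and 91.0, 71.6 and 122 in knockdown libraries, a difference of 0.17 ± 0.28 (adjusted p = 0.691). The groups overlapped for both. The direction for Cdkn1c turned without scrambled library 3 (-0.051).

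The INK4 genes, neighbours on chromosome 4 from 89274471 to 89294653 (Cdkn2a) and from 89306299 to 89311039 (Cdkn2b), were close to the limit of detection. Cdkn2a had 0 and 5 reads in sham, 8, 0 and 0 in scrambled and 3, 0 and 0 in knockdown libraries, and was not tested. Its count pools p16 and p19Arf, which are read from 1 locus through different first exons. Cdkn2b, the gene of p15, had 4 and 19 reads in sham, 3, 17 and 7 in scrambled and 13, 9 and 14 in knockdown libraries. Its log2 difference of -0.69 ± 0.84 (adjusted p = 0.579) turned to 0.70 without sham library 2. At this depth no difference between groups was detectable for either.

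Trp53 (chromosome 11 from 69580359 to 69591873, + strand) was at 66.0 and 57.2 CPM in sham, 43.8, 66.0 and 60.2 in scrambled and 58.6, 45.8 and 60.0 in knockdown libraries. The 3 groups overlapped, and the difference between scrambled and sham was -0.12 ± 0.22 on the log2 scale (adjusted p = 0.717). It was 0.036 without scrambled library 1. Mdm2 (chromosome 10 from 117688875 to 117710758, - strand) was at 49.5 and 46.0 CPM in sham, 89.6, 42.6 and 72.8 in scrambled and 41.2, 55.1 and 44.7 in knockdown libraries. Scrambled libraries 1 and 3 were the 2 highest of all 8, and scrambled library 2 was below both sham libraries. The difference was 0.52 ± 0.29 (adjusted p = 0.252).

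The calls in this comparison, of members and of genes at large, depended on single libraries. None of the 9 was called in a fit of these 2 groups alone, where 0.0303% of all genes were. There, 4 of the 9 had an unadjusted p under 0.05. None was called without scrambled library 3 (0.362% of all genes) or knockdown library 1, 2 or 3 (0.0516% to 0.103%). The log2 change of Gadd45g stayed between 1.56 and 1.91 over all alternatives, and that of Gadd45b between 1.63 and 2.19. That of Gadd45a stayed between 0.79, without sham library 2, and 1.33, without sham library 1. Without scrambled library 1 only Gadd45g was called (edgeR, adjusted p = 0.0351), beside 0.498% of all genes. Without scrambled library 2 there were 5, adding Cdkn1a (2.47, adjusted p = 5.61e-05) and Mdm2 (0.78, 0.00280), where 25.4% of all genes were called higher.

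Knockdown libraries were set against scrambled libraries to see what goes with inhibiting miR-27a-3p in the tumour cells. Each construct was 1 stable line, so other differences between the lines cannot be told apart from the inhibition. All 3 Gadd45 genes were at lower levels in each knockdown library than in any scrambled library, with log2 differences of -1.32 ± 0.28 for Gadd45b (2.49-fold lower), -1.06 ± 0.20 for Gadd45g (2.09-fold) and -0.53 ± 0.17 for Gadd45a (1.44-fold). None of the 9 tested members was called by edgeR (adjusted p = 0.0684, 0.0610 and 0.0940 for these 3), beside 0.044% of all genes called lower and 0.00733% higher. An unadjusted p under 0.05 was given to 4 members, the Gadd45 genes and Cdkn1a, beside 32.4% of all genes. DESeq2 called 3 lower, Gadd45b (adjusted p = 0.000579), Gadd45g (0.000199) and Cdkn1a (0.0397). It called 5.88% of all genes in the table lower, a share whose base counts genes without any reads. The groups did not overlap for 4 of 9, the Gadd45 genes and Cdkn1b, all lower, beside 16.7% of all genes lower and 17.5% higher without overlap. The median log2 difference was -0.53 over the 9 and 0.01 over all genes.

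Cdkn1a was 2.01-fold lower (log2 -1.01 ± 0.36, adjusted p = 0.107), and this difference rested on scrambled library 1: without it the log2 difference was -0.45 (adjusted p = 0.294). Cdkn1b (-0.26 ± 0.16, adjusted p = 0.283) and Cdkn1c (-0.48 ± 0.25, adjusted p = 0.202) were lower by less. Mdm2 differed by -0.54 ± 0.26 (adjusted p = 0.177) and Trp53 by -0.05 ± 0.19 (adjusted p = 0.876), which was 0.080 without scrambled library 2. Without scrambled library 2, 6 of the 9 members were called lower, where 26.6% of all genes were, with Mdm2 at -0.80 (0.00100) and Cdkn1c at -0.64 (0.0258) beside the Gadd45 genes and Cdkn1a (-1.33, 0.000867).

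Knockdown libraries were also compared with sham. This comparison shares its libraries with the other 2 comparisons, so its values are given beside them and not as separate evidence. The Gadd45 genes and Cdkn1a were above both sham libraries in every knockdown library. Cdkn1a was 2.21-fold higher (log2 1.14 ± 0.42), Gadd45g 1.59-fold (0.67 ± 0.23), Gadd45b 1.53-fold (0.61 ± 0.31) and Gadd45a 1.43-fold (0.52 ± 0.20). None of the 9 members was called (edgeR, adjusted p of 1 for each), beside 0.00733% of all genes called higher and 0% lower; 3 had an unadjusted p under 0.05, beside 2.37% of all genes, and DESeq2 called 0. The groups did not overlap for these 4, beside 13.8% of all genes higher and 13.5% lower without overlap. In a fit of these 2 groups alone Cdkn1a (adjusted p = 0.00286) and Gadd45g (0.0312) were called, where 0.553% of all genes were called higher. The other members differed from sham by -0.31 to 0.04 on the log2 scale (Cdkn1c and Cdkn1b at the ends), with overlapping groups.

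**Figure D4:**
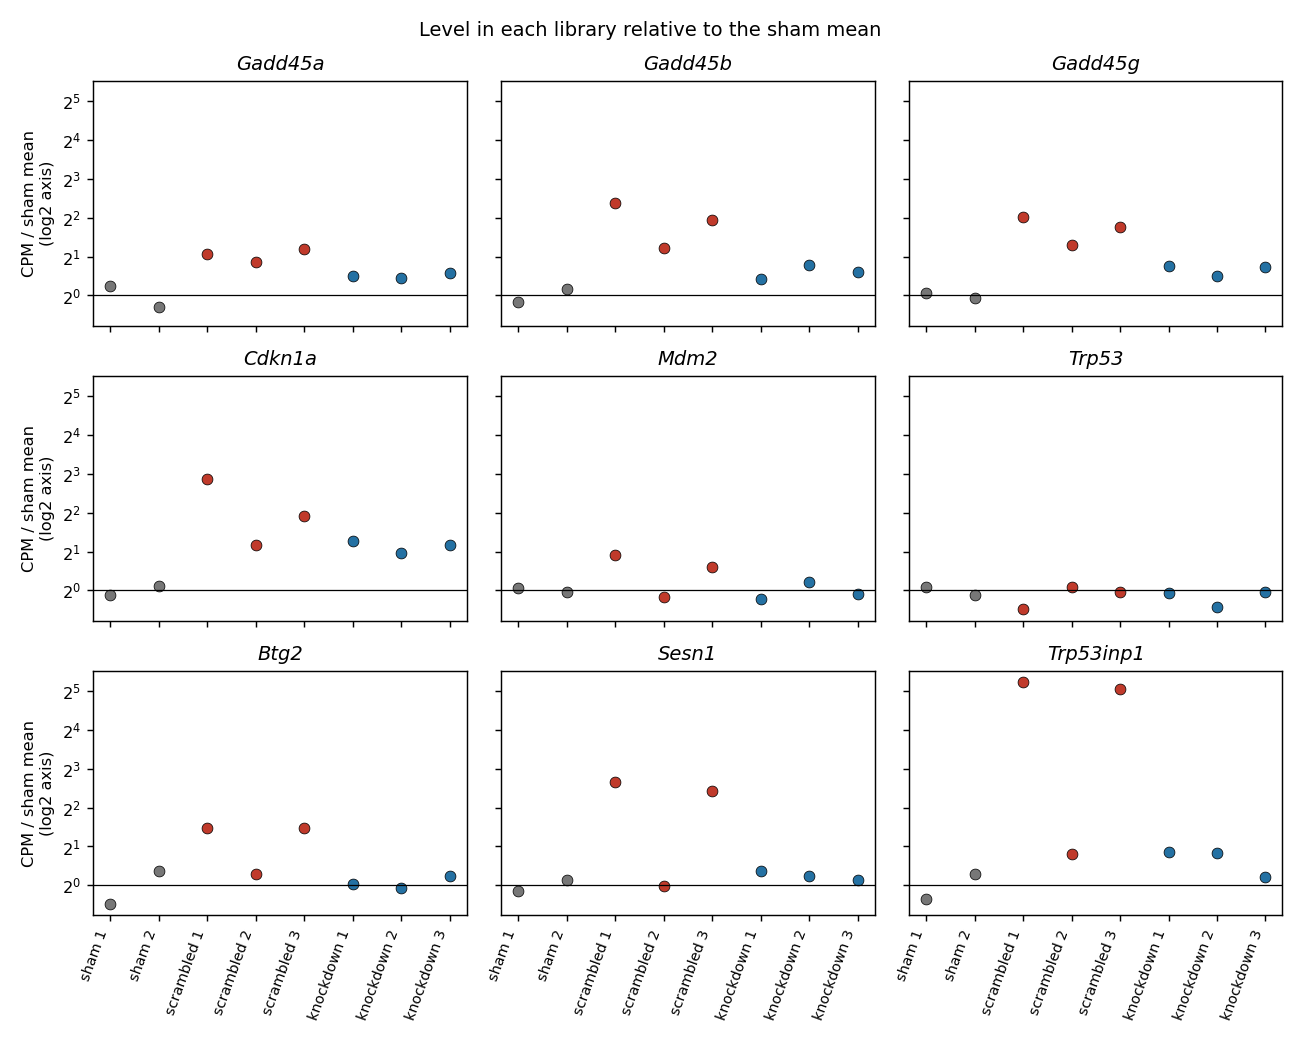
Normalised CPM of each library divided by the sham mean, on a log2 axis, for 6 members and 3 p53 target genes. In scrambled library 2 the Gadd45 genes and Cdkn1a stand at 1.83 to 2.48 times the sham mean. Mdm2, Btg2 and Sesn1 stand between 0.891 and 1.21 times there, and Trp53inp1 at 1.74 times.

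In scrambled library 2, Gadd45a was 1.83, Gadd45b 2.33, Gadd45g 2.48 and Cdkn1a 2.26 times the sham mean. In scrambled libraries 1 and 3 the same 4 genes stood between 2.08 and 7.29 times. Mdm2, by contrast, was at 1.88 times in scrambled library 1, 0.891 times in scrambled library 2 and 1.52 times in scrambled library 3. Sesn1, which encodes a stress-induced inhibitor of mTORC1 signalling, was at 6.36, 0.979 and 5.37 times in scrambled libraries 1, 2 and 3, and Trp53inp1, a p53-induced autophagy and cell-death gene, at 37.8, 1.74 and 33.5 times. Btg2, an antiproliferative p53 target chosen here after its values were seen, was at 2.77, 1.21 and 2.79 times. Over all 30 targets listed, the median was 1.55 times the sham mean in scrambled library 1, 1.10 times in scrambled library 2 and 1.28 times in scrambled library 3. In these libraries 21, 15 and 17 targets were above both sham libraries, and 9, 9 and 10 were below both. In knockdown libraries 1, 2 and 3, 10, 12 and 13 targets were above both sham libraries, and 9, 11 and 11 below both. The same counts over all genes were not made, so these counts do not show whether the targets differ from other genes. With 2 sham libraries, many genes fall outside the sham range without any difference between groups. Some targets stood above the sham mean in scrambled library 2 too, among them the cell-death genes Pmaip1 (2.58 times), Perp (3.60 times) and Fas (1.66 times), which were chosen after their values were seen. Levels were low for Pmaip1 (0.759 and 1.17 CPM in sham, 2.49 in scrambled library 2) and Perp (0.316 and 0.670, and 1.78). Fas was at 15.1 and 12.9 CPM in sham and 23.2 in scrambled library 2. These differences between genes within 1 library were not tested.

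**Figure D5:**
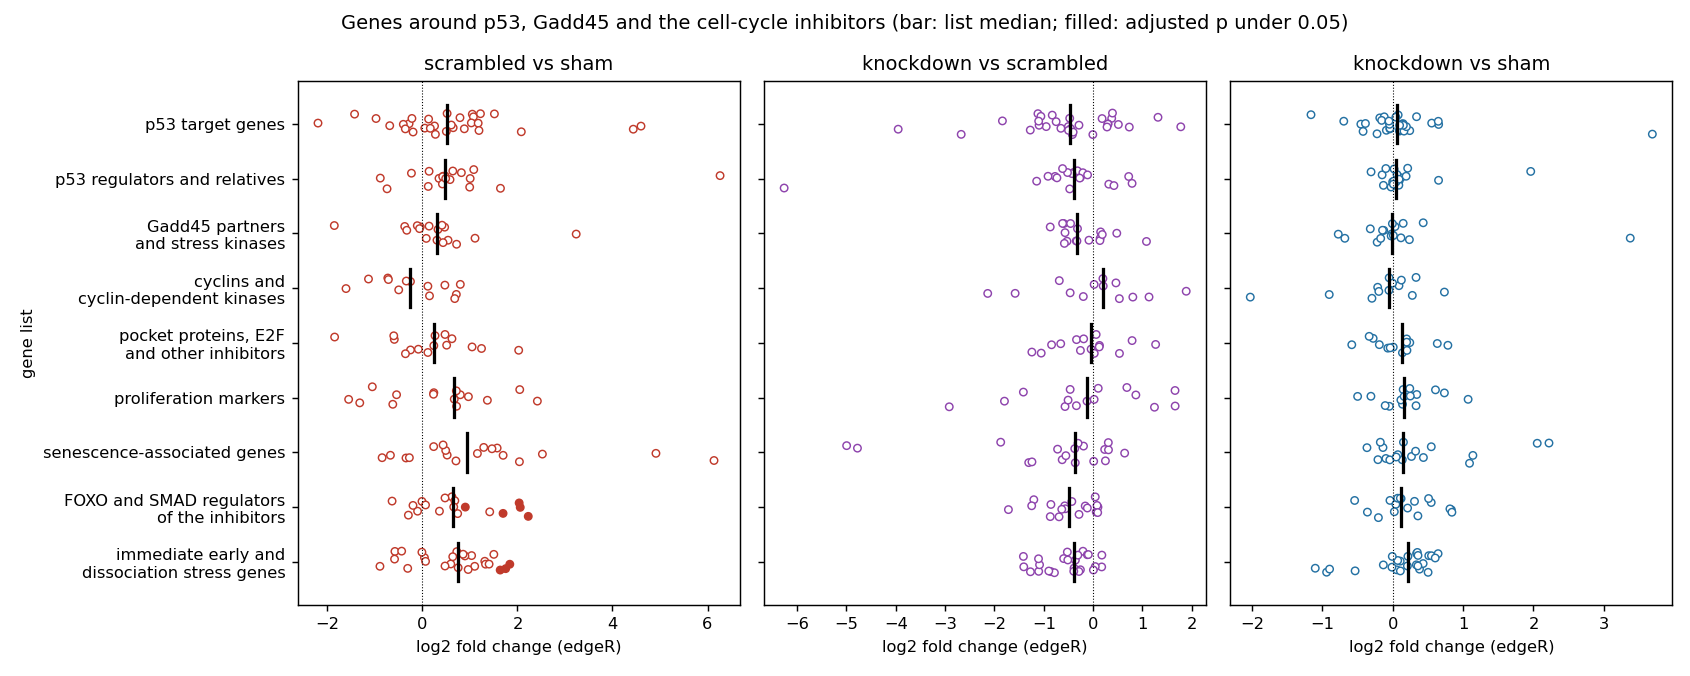
Log2 fold changes (edgeR) of the tested genes of 9 lists in the 3 comparisons, 1 point per gene, with a bar at the list median; filled points had an adjusted p under 0.05. The filled points are 5 genes of the FOXO and SMAD list and 3 immediate early genes, all in scrambled against sham libraries.

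The counts for the lists below stand against those for all genes. From sham to scrambled libraries 29.2% of all tested genes had an unadjusted p under 0.05 in edgeR (16.7% higher, 12.5% lower), and DESeq2 called 5.1% of the genes in the table higher and 2.91% lower. From scrambled to knockdown libraries the unadjusted share was 32.4%, and DESeq2 called 3.08% higher and 5.88% lower. The DESeq2 shares are of all 24419 genes, of which 6786 had no reads in any library and could not be called. Over the genes with reads these shares would be larger.

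Of 30 other p53 target genes, all tested, none was called between scrambled and sham libraries by edgeR, and 12 had an unadjusted p under 0.05, 9 higher and 3 lower. DESeq2 called 4 higher and 2 lower, limma-voom called 1 lower, and edgeR without scrambled library 2 called 12 higher and 4 lower, where it called 25.4% of all genes higher and 25.6% lower. Their median log2 difference was 0.51, against 0.00 for all genes. The smallest p belonged to Phlda3, an inhibitor of AKT, at -1.43 ± 0.33 (adjusted p = 0.0602), Trp53inp1 at 4.60 ± 1.10 (0.0646), the adenylate kinase gene Ak1 at -2.20 ± 0.57 (0.0757) and Sesn1 at 2.08 ± 0.63 (0.0966). Phlda3 averaged 36.8 ± 15.6 CPM (SD, n = 2) in sham and 13.7 ± 4.18 (SD, n = 3) in scrambled libraries, opposite in direction to Cdkn1a. Ccng1 and Zmat3, p53 targets in many tissues that were also picked after their values were seen, stood at 52.4 and 54.1 and at 24.4 and 23.7 CPM in sham, and at 37.3 to 54.3 and 18.8 to 22.8 in scrambled libraries. The p53 target list therefore held differences in both directions. From scrambled to knockdown libraries edgeR called none of the 30 (13 had an unadjusted p under 0.05, and DESeq2 called 2 higher and 6 lower), with a median of -0.47, and Trp53inp1 was at -3.95 ± 0.89 (adjusted p = 0.0710). Of the 19 tested regulators and relatives of p53 edgeR called none in any comparison. An unadjusted p under 0.05 was given to 5 from sham to scrambled, 6 from scrambled to knockdown and 0 from sham to knockdown libraries, and DESeq2 called 1, 3 and 0. Ppm1d, a phosphatase that restrains p53 and is one of its targets, was at 0.99 ± 0.35 from sham to scrambled (adjusted p = 0.117) and -1.14 ± 0.30 from scrambled to knockdown libraries (0.0732), and Atm, the DNA damage kinase, at 0.82 ± 0.26 (0.101) and -0.77 ± 0.22 (0.0790).

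Among 17 tested partners of Gadd45 and stress kinases none was called in any comparison by edgeR. From sham to scrambled 4 had an unadjusted p under 0.05 and DESeq2 called 2; from scrambled to knockdown these were 7 and 3, and from sham to knockdown libraries 1 and 0. Pcna, which Gadd45 proteins bind, was at 36.4 and 37.0 CPM in sham, 64.3, 60.0 and 57.0 in scrambled and 41.8, 41.1 and 39.3 in knockdown libraries. Its 3 groups did not overlap, in the same order as those of the Gadd45 genes (0.72 ± 0.16, adjusted p = 0.0564, from sham to scrambled; -0.57 ± 0.14, 0.0727, from scrambled to knockdown). Ppp1r15a, also known as Gadd34, was at 1.11 ± 0.29 (0.0782) and -0.87 ± 0.26 (0.0805). Map2k3, a kinase that activates p38, was at 0.47 ± 0.20 (0.158) and -0.59 ± 0.17 (0.0805).

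Of 13 tested kinases and cyclins, the partners that the inhibitors bind, neither edgeR nor DESeq2 called any in any comparison (2, 4 and 0 had an unadjusted p under 0.05 in edgeR from sham to scrambled, scrambled to knockdown and sham to knockdown libraries), and the median was -0.25 from sham to scrambled and 0.20 from scrambled to knockdown libraries. The D cyclins, partners of CDK4 and CDK6, had among the smallest p: Ccnd3 was at -0.50 ± 0.16 (adjusted p = 0.103), Ccnd1 at -1.61 ± 0.75 (0.186) and Ccnd2 at -0.72 ± 0.35 (0.205). Ccnd1 was at 46.6 and 31.1 CPM in sham, 5.96, 29.0 and 2.58 in scrambled and 36.5, 68.8 and 36.0 in knockdown libraries, low in scrambled libraries 1 and 3. Of 15 tested pocket proteins, E2F factors and other inhibitors edgeR called none from sham to scrambled libraries (4 at an unadjusted p under 0.05, 4 called by DESeq2). Cdkn2d, the INK4 gene of p19Ink4d, was at 19.0 and 22.3 CPM in sham, 48.9, 29.6 and 49.6 in scrambled and 24.1, 25.1 and 22.2 in knockdown libraries (1.05 ± 0.25, adjusted p = 0.0668), and Rbl2, the pocket protein p130 of quiescent cells, was at 1.24 ± 0.37 (0.0908). Of 15 tested proliferation markers edgeR called none from sham to scrambled libraries (5 at an unadjusted p under 0.05, 4 called by DESeq2, median 0.67). Their smallest p belonged to Pcna and to Mcm7, a subunit of the replicative helicase, at 2.05 ± 0.49 (0.0644). The markers summed to 144 and 150 CPM in sham, 192 to 310 in scrambled and 155 to 169 in knockdown libraries.

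Of 18 senescence-associated genes none was called by edgeR, with 9 at an unadjusted p under 0.05 from sham to scrambled libraries, 8 higher and 1 lower, and a median of 0.93. DESeq2 called 7 of them higher and 1 lower, and limma-voom 1 higher. Igfbp3, which encodes a binding protein of insulin-like growth factors, was at 79.1 and 180 CPM in sham, 14743, 552 and 12089 in scrambled and 283, 263 and 311 in knockdown libraries (6.14 ± 1.26, adjusted p = 0.0520). It was thus far higher in scrambled libraries 1 and 3 than in any other. Il6, the cytokine gene, was at 8.98 and 9.15 CPM in sham, 54.3, 42.9 and 14.1 in scrambled and 36.4, 44.4 and 32.2 in knockdown libraries, so that the scrambled and knockdown ranges overlapped. In the list of 18 tested FOXO, SMAD and other regulators of the inhibitors 5 were called higher from sham to scrambled libraries and none lower: Cebpd (2.06 ± 0.32), Myc (1.70 ± 0.27), Klf9 (2.04 ± 0.38), Cebpb (2.23 ± 0.42) and Cebpa (0.90 ± 0.18). None of these is a FOXO or SMAD gene. Cebpa, Cebpb and Cebpd encode C/EBP factors, Klf9 a glucocorticoid-induced factor, and Myc a growth factor-induced one that represses Cdkn1a. Between scrambled and knockdown libraries edgeR called none of the 18 (8 at an unadjusted p under 0.05, all lower, and 7 called lower by DESeq2).

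Patterns were compared as the mean absolute difference between log2 CPM values, each centred on the gene's own mean over the 8 libraries, among 10277 genes with a mean of at least 5 CPM. The genes most like Gadd45g were Cpne8 (0.0975), Fam43a (0.107) and Gpx3 (0.132), the gene of a secreted glutathione peroxidase. Those most like Cdkn1a were Errfi1 (0.137), which encodes an inhibitor of EGF receptor signalling, Ctsc (0.192) and Prkch (0.194). Those most like Trp53 were Immt (0.0526), Rdh5 (0.0573) and Mrpl28 (0.0574), whose log2 differences between scrambled and sham libraries were 0.00, -0.03 and -0.08. Among the members, the smallest difference was between Cdkn1b and Trp53 (0.204), then between Gadd45b and Gadd45g (0.230). Genes that vary little score as close by this measure whatever their direction. The log2 differences of Cdkn1b and Trp53 from sham to scrambled libraries, 0.30 and -0.12, had opposite signs.

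Markers of other cell types also differed between the libraries. Of the 7 mature adipocyte markers 5 were tested and 1, the lipid droplet gene Plin4, was called (log2 3.59 ± 0.59 from sham to scrambled, adjusted p = 0.0300). The list summed to 1.14 and 3.79 CPM in sham, 20.4 to 46.8 in scrambled and 2.82 to 7.14 in knockdown libraries. Adipoq was at 0 in sham library 1 and knockdown libraries 1 and 2 and at no more than 0.882 CPM in the others. Of the 9 muscle fibre markers edgeR called none, though all 9 differed upwards from sham to scrambled libraries, 3 at an unadjusted p under 0.05. DESeq2 called 3 higher there, and 2 lower from scrambled to knockdown libraries. The fibre markers summed to 30.9 and 56.5 CPM in sham, 61.6 to 212 in scrambled and 42.8 to 54.9 in knockdown libraries. Of the 7 endothelial markers edgeR called none (4 at an unadjusted p under 0.05 from sham to scrambled libraries, and 3 higher and 1 lower by DESeq2), and 6 differed upwards, with a median of 0.58. Their sum, 496 and 508 CPM in sham, 384 to 452 in scrambled and 481 to 566 in knockdown libraries, was mostly Tek, the angiopoietin receptor gene, which was at 392 and 412 CPM in sham and 201 to 291 in scrambled libraries. Cldn5, a tight junction gene, was at 3.48 and 4.07 CPM in sham and at 28.3, 5.66 and 15.8 in scrambled libraries. The 6 markers of epithelial tumour cells summed to at most 15.9 CPM, in scrambled library 1. EdgeR called none of them, and DESeq2 called 2 higher and 1 lower from sham to scrambled libraries. Cdh1 had 4 and 1 reads in sham, 240, 12 and 4 in scrambled and 40, 56 and 14 in knockdown libraries. Krt7 went the other way, with 71 and 30 reads in sham and 0, 17 and 0 in scrambled libraries. The part of these other cell types in the differences of the Gadd45 genes and Cdkn1a was not tested.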

How the data were processed

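The authors deposited unnormalised read counts by gene symbol for 8 libraries. Per the submitters' processing notes, mm10 was used, with STAR, Bowtie, DESeq2 1.36.0, R 4.2.1 and bcl2fastq 2.20, in no stated role or order. Counter, annotation and strand setting: not given in the sources used here. Per the labels' protocols, libraries were made with a stranded mRNA kit and read as pairs of 59 bases, from RNA of integrity 7 or above.

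Groups were taken from the sample titles. In R 4.3.3, edgeR 4.0.16 kept genes by filterByExpr (minimum count 10, total 15), scaled them by TMM and fitted the means of the 3 groups to all 8 libraries with a shared dispersion (robust quasi-likelihood). Tests were two-sided with Benjamini-Hochberg adjustment over 13646 genes. Log2 CPM used a prior count of 2. Each SE is the size of the log2 change over the root of F. The fit was tested on simulated data. The alternatives were DESeq2 1.42.0, limma-voom 3.58.1, DESeq2 size factors, no filter, edgeR's legacy method, 2 groups alone, a replicate block and leaving out each library. Where 1 sham library remained, it was assumed to vary like the other groups. The labels call the libraries biological replicates without saying whether mice were pooled, so p-values measure the spread between these libraries. Gene models came from GENCODE M21 (GRCm38, as mm10). Lists came from general knowledge. The named genes were all members and, of each pathway list, the called genes or otherwise up to 4 with the smallest p per comparison, of which part are printed. The counts of calls per list by other tools and without scrambled library 2 were chosen after seeing the data. The members and lists were chosen with earlier results of these data known. Reads without molecular identifiers give counting error only.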

Additional observations from a re-analysis of the deposited data

How the results depend on the processing

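Of the 27 log2 fold changes of the members, 405 alternative values were computed; 349 kept the direction and the side of the threshold, 27 lost a call, 16 gained one and 13 turned direction. The count of genes called from sham to scrambled, 215, was 1957 with DESeq2, 133 with the legacy method, 16 with the replicate block and 4 in a fit of 2 groups, and 0 to 6908 with 1 library left out. From scrambled to knockdown, 7 genes became 11 with no filter, 2187 with DESeq2, 1 with the legacy method, 0 with the replicate block or 2 groups, and 0 to 7313 with 1 library left out. For knockdown against sham, 1 gene became 2 with no filter, 25 with DESeq2, 0 with the replicate block, 101 with 2 groups, and 0 to 32 with 1 library left out. Members called from sham to scrambled, 3, were 0 with the replicate block or 2 groups and 0 to 5 with 1 library left out; from scrambled to knockdown, 0 became 3 with DESeq2 and 0 to 6 with 1 library left out; for knockdown against sham, 0 became 2 with 2 groups. The counts of members whose groups did not overlap were the same with DESeq2 size factors. Directions turned for values near 0 or with few reads. From sham to scrambled these were Cdkn1c (-0.064 with the replicate block, and -0.051 to 0.32 with 1 library left out, lowest without scrambled library 3), Cdkn2b (-1.46 to 0.70, highest without sham library 2) and Trp53 (-0.24 to 0.036, highest without scrambled library 1). From scrambled to knockdown they were Cdkn2b (-0.015 to 1.27, lowest without scrambled library 1) and Trp53 (-0.21 to 0.080, above 0 without scrambled library 2 or knockdown library 2). For knockdown against sham they were Cdkn1b (-0.15 to 0.26, lowest without sham library 1), Cdkn2b (0.11 with limma-voom, and -0.83 to 1.22, highest without sham library 2) and Mdm2 (-0.16 to 0.061, above 0 without sham library 1, knockdown library 1 or knockdown library 3). The causes were not tested. The replicate numbers share only a number: deviations of same-numbered libraries correlated at -0.06 to 0.17. The depth limits Cdkn2a and Cdkn2b, with at most 19 reads in a library.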
